A study of Homo sapiens with 5 samples.

Results

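The genes described here are 6 members of the BCL2 family other than BCL2 itself: MCL1, BCL2L1, BCL2L11, BBC3, PMAIP1 and BAX. A peak was counted for a gene when it lay within 5 kb of the gene's given span on the human build hg19. This took in 413 of the 1150695 peaks in the 6 deposited peak lists. The lists come from chromatin immunoprecipitation and sequencing (ChIP-seq) in the human lymphoma cell line U2932, grown without treatment. Chromatin was precipitated with antibody 1 against PRDM11, antibody 2 against PRDM11 (both non-commercial rabbit polyclonal antibodies), or an antibody against RNA polymerase II, in 1 library each. The controls were rabbit IgG and input (chromatin that was not precipitated), also 1 library each, and each ChIP library has 1 list called against IgG and 1 called against input.

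BCL2 family proteins decide whether the outer mitochondrial membrane is made permeable, the step that commits a cell to apoptosis through the mitochondrial pathway. MCL1 and BCL-XL, the main product of BCL2L1, guard against it. BIM (BCL2L11), PUMA (BBC3) and NOXA (PMAIP1) carry little more than a BH3 domain, bind the guardians and promote death, and BAX is an effector that forms the pores. Lymphocytes depend on this balance for their survival and removal, and lymphomas often shift it. PRDM11 belongs to the PR domain family of chromatin-associated proteins, and RNA polymerase II transcribes protein-coding genes.

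RNA polymerase II peaks lay at all 6 genes, antibody 2 peaks at 5 and antibody 1 peaks at 3 (BCL2L1, BCL2L11 and BAX) in the lists called against IgG. Within 5 kb of the spans there were 7 of the 13499 antibody 1 peaks, 49 of the 465837 antibody 2 peaks and 113 of the 50161 RNA polymerase II peaks. Per 10 kb of window this was 0.355 antibody 1, 2.49 antibody 2 and 5.74 RNA polymerase II peaks, against 0.0458, 1.58 and 0.17 over the whole lists, or 7.76, 1.57 and 33.8 times the density of each list. The whole-list values include gene-poor chromosome regions. There was 1 library per antibody, so the spread between replicates is unknown and differences were not tested. The lists give positions only, without read counts, so the depth behind a peak is unknown. Shares carry exact (Clopper-Pearson) 95% intervals, which cover counting error only and treat peaks as independent.

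**Figure D1:**
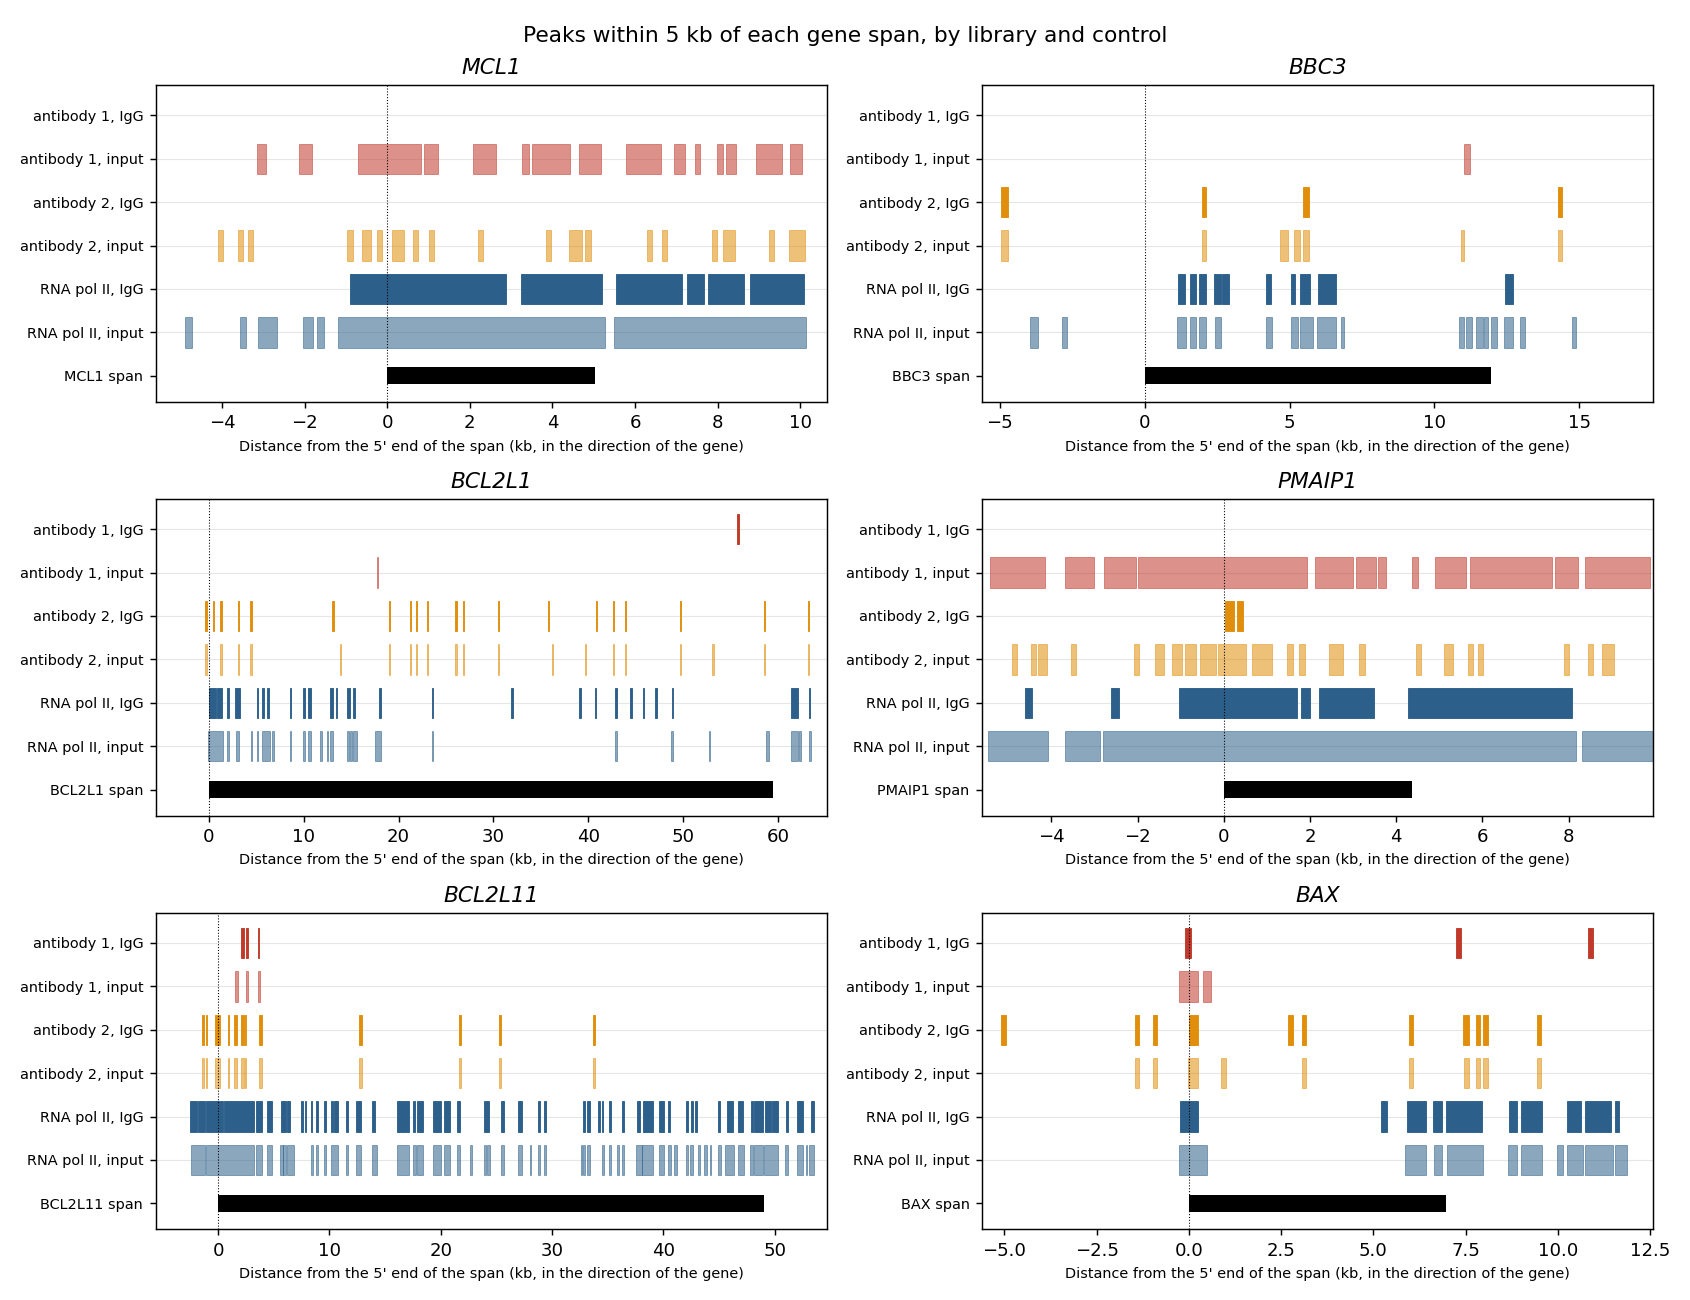
Peaks within 5 kb of each gene span, in kb from the 5′ end of the span in the direction of the gene. Rows from top to bottom are antibody 1, antibody 2 and RNA polymerase II, each called against IgG (dark) and input (pale), with the span in black. At BAX peaks of all 3 libraries meet at the 5′ end, at BCL2L11 antibody 1 peaks sit inside the 5′ cluster, and MCL1 and PMAIP1 fill with antibody peaks only against input.

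The start of a gene was taken as the 5′ end of its span. A peak lay within 1 kb of it at 1 of 6 genes for antibody 1 (BAX), at 4 for antibody 2 (BCL2L1, BCL2L11, PMAIP1 and BAX) and at 5 for RNA polymerase II (all but BBC3). Consecutive genome windows of the same length held a peak in 0.869%, 27.7% and 2.61% of cases. These windows cover the whole genome and are not limited to gene starts. The RNA polymerase II count stands above that genome share, but how it compares with the starts of other genes was not tested. The antibody 1 count rests on 1 gene. The span of BCL2L11 is 1538 bp longer than its RefSeq gene. If all of that lay at the 5′ end, its antibody 1 peaks would begin 520, 934 and 2033 bp inside the start, and the counts would be 2, 4 and 5 genes. Against input the counts were 3, 5 and 5 genes, with 2.82%, 28.2% and 3.87% of windows. MCL1 and PMAIP1 were the genes gained by antibody 1, and MCL1 the gene gained by antibody 2. Both lie in stretches where input-called peaks of all 3 libraries are dense, as described for each gene below.

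RefSeq promoter windows, from 250 bases before the annotated start to 50 after it, were matched by symbol for 5 of the 6 genes. The windows of 4 genes are shown. Peaks were placed by the 5′ end of each hg19 span, not by the starts of these windows. By that measure BAX has all 3 libraries at its start, and PMAIP1 and BCL2L11 have antibody 2 and RNA polymerase II. BBC3 has no peak within 1 kb. The RefSeq start of BCL2L11 may lie up to 1538 bp further inside. Antibody 1 would then also have peaks within 1 kb of it. The annotated start of the BBC3 window lies 193 bp inside its RefSeq gene, while those of BAX, PMAIP1 and BCL2L11 lie at the 5′ ends of theirs. All positions in this paragraph are of build GRCh38.p14, whereas peak positions are of hg19, so no peak is placed on the letters. Capitals mark matches on either strand to GGGCGG (the GC box), CCAAT (the CCAAT box), CACGTG (an E-box), TGANTCA (the AP-1 site), TGACGTCA (the cAMP response element), CCGGAAG (an ETS site) and TATAAA (the TATA box), and no matches overlap.
BAX, chr19:48954625-48954924, plus strand: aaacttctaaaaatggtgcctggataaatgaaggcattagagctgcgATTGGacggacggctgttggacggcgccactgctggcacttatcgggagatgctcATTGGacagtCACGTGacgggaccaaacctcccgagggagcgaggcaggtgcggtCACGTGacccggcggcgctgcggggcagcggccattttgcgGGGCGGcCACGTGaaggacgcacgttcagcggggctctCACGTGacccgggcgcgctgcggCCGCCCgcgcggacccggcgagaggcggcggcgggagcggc
PMAIP1, chr18:59899746-59900045, plus strand: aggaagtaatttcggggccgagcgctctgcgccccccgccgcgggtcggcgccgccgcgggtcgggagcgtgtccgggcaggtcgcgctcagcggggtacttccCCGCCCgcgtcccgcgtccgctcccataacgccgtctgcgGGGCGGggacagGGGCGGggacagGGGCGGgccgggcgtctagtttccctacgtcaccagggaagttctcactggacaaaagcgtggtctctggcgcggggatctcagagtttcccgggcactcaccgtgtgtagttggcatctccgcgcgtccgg
BCL2L11, chr2:111120664-111120963, plus strand: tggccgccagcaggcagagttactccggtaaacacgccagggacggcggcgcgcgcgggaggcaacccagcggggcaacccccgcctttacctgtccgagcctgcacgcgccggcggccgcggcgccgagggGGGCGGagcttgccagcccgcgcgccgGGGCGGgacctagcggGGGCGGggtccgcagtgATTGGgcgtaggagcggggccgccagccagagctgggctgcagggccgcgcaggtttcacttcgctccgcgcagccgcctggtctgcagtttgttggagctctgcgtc
BBC3, chr19:47232618-47232917, minus strand: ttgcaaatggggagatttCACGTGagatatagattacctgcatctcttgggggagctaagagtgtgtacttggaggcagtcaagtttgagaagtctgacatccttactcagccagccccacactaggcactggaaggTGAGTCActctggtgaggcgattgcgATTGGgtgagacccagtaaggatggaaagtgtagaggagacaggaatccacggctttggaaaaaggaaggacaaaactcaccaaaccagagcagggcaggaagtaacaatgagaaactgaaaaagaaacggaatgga

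The letters of these windows differ, and whether this goes with the peaks was not tested. The BAX window holds 4 matches to CACGTG, the first letters of which lie 138, 93, 45 and 14 bases before the start. Of 35116 RefSeq promoter windows, 7.26% hold at least 1 such match, and 5 windows (0.0142%) hold 4 or more, a limit set after the BAX count was seen. PMAIP1 holds 4 matches to GGGCGG and BCL2L11 holds 3. At least 1 is held by 45% of all windows, and the share with 3 or more is not given here, so neither count can be called unusual. BBC3 holds 1 E-box, 1 CCAAT box and 1 AP-1 match, which occur in 7.26%, 34.6% and 7.71% of windows. BAX also has 2 matches to GGGCGG and 2 to CCAAT, and BCL2L11 has 1 to CCAAT. G or C made up 67.3%, 71.3% and 74.7% of the BAX, PMAIP1 and BCL2L11 windows and 48.0% of the BBC3 window, against a median of 58.7% over all windows. CG pairs numbered 38, 42, 39 and 5 in the same order, against a median of 14. The RefSeq window at the start of BCL2L1, which also has antibody 2 and RNA polymerase II peaks, was not as rich in G and C as those of BAX, PMAIP1 and BCL2L11: G or C made up 52.0% of it, with 20 CG pairs. It holds no match to GGGCGG, 2 to TATAAA and 1 to CCGGAAG, which occur in 11.5% and 10.3% of all windows. Its other RefSeq promoter, further inside the gene, had 61.3% G or C and 16 CG pairs. A match is a run of letters and shows no binding.

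MCL1, a short-lived guardian protein that many B cell lymphomas rely on, lies on chromosome 1 at 150547032 to 150552066 on the minus strand. It carried no peak of antibody 1 or antibody 2 against IgG and 6 RNA polymerase II peaks. Of the 6, 2 touched the span and covered 92.8% of it. The widest of these, at 150549179 to 150552959 (3781 bp), reached from 893 bp upstream of the 5′ end to 2887 bp inside the gene. The other 5 RNA polymerase II peaks were 424 to 1949 bp wide, and 4 of the 6 lay wholly beyond the 3′ end, which is 5035 bp from the 5′ end. RNA polymerase II thus covered the gene and the sequence after it, and no upstream peak was separate from the gene. Windows as long as that of MCL1 held an antibody 1 peak against IgG in 5.22% of cases, an antibody 2 peak in 83.0% and an RNA polymerase II peak in 9.62%, so a window of this length without an antibody 2 peak is the less common case. The nearest antibody 2 peak lay 5123 bp upstream of the gene, just outside the 5 kb limit, and was 123 bp wide. The nearest antibody 1 peak lay 13256 bp past the 3′ end.

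Against input, the MCL1 window held 15 antibody 1, 19 antibody 2 and 7 RNA polymerase II peaks, with 12.6%, 82.9% and 12.3% of windows of that length holding any. An antibody 1 peak of 1506 bp lay over the start (150551259 to 150552764). The 1 Mb bin from 150000001 to 151000000 held 519 antibody 1, 607 antibody 2 and 515 RNA polymerase II peaks against input, and 16, 192 and 121 against IgG. The bin thus also held more antibody peaks against input than against IgG, though its totals do not show how they are spread. In the MCL1 window there were 9.98 antibody 1 and 12.6 antibody 2 peaks per 10 kb against input. The part of the bin in the MCL1 counts was not tested.

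BCL2L1, the gene of BCL-XL and of its shorter, death-promoting splice form, spans 30252255 to 30311792 on chromosome 20, on the minus strand. Its window held 1 antibody 1, 20 antibody 2 and 26 RNA polymerase II peaks against IgG. The antibody 1 peak, at 30255931 to 30256053, had the minimum width of 123 bp and lay 55739 bp from the 5′ end, near the 3′ end. It met no antibody 2 peak (the nearest was 2650 bp away), no RNA polymerase II peak (5567 bp away) and no antibody 1 peak called against input (37871 bp away). Antibody 2 peaks were of the minimum width of 123 bp in 19 of 20 cases, the other being 212 bp (30307241 to 30307452). They were spread along the gene, with 4, 2, 5, 2, 4 and 1 in successive steps of 10 kb from the 5′ end (the last step shorter). RNA polymerase II peaks in the same steps numbered 8, 7, 1, 2, 6 and 0, so 15 of the 24 on the gene lay in its first 20 kb.

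At the start of BCL2L1, an RNA polymerase II peak of 743 bp ran from 6 bp upstream to 736 bp inside (30311056 to 30311798). An antibody 2 peak of 123 bp lay inside it, 438 bp from the start, and was not found against input, and another lay 361 to 239 bp upstream, outside it. The widest RNA polymerase II peak of the window (746 bp, 30249619 to 30250364) lay past the 3′ end. RefSeq lists another promoter of BCL2L1, 1095 bp inside the gene on GRCh38.p14, and the RNA polymerase II peak called against input (1557 bp) ran from 85 bp upstream to 1471 bp inside. Windows of this length held peaks of antibody 1, antibody 2 and RNA polymerase II in 19.3%, 94.9% and 24.6% of cases against IgG and in 36.6%, 94.9% and 28.6% against input. The counts against input were 1, 20 and 25, so the control hardly changed these counts, but the peaks were not all the same. The antibody 1 peak lay elsewhere. Of the peaks called against IgG, 16 of 20 for antibody 2 and 19 of 26 for RNA polymerase II were found against input. Over the whole lists 93.2% and 89.4% were.

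BCL2L11 encodes BIM, which removes self-reactive and cytokine-deprived lymphocytes, and spans 111876955 to 111926024 on chromosome 2, on the plus strand. It had the most RNA polymerase II peaks of the 6 genes, 55, at 9.31 per 10 kb against 0.17 for the whole list. They covered 36.2% of the window and ran along its whole length, with 11, 9, 7, 10 and 9 in successive steps of 10 kb from the 5′ end. The widest, 2672 bp at 111877474 to 111880145, ran from 519 to 3190 bp inside the gene, and one of 1507 bp (111875871 to 111877377) lay over the 5′ end. The gene was thus marked throughout, and most widely at its 5′ end.

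All 3 antibody 1 peaks of BCL2L11 fell inside this 5′ part. They lay at 111879013 to 111879251 (239 bp), 111879427 to 111879610 (184 bp) and 111880526 to 111880648 (123 bp), or 2058, 2472 and 3571 bp from the 5′ end. The 239 bp peak lay wholly in an antibody 2 peak, the 184 bp peak shared 45 bp with one, and the 123 bp peak ended 20 bp short of one. All 3 lay wholly in RNA polymerase II peaks. Of the 12 antibody 2 peaks, 8 lay between 2500 bp upstream and 4000 bp inside the gene. The widest (436 bp, 111876690 to 111877125) covered the 5′ end of the span from 265 bp upstream to 170 bp inside. No other antibody 1 peak lay within 914318 bp of the span against IgG, or within 715686 bp against input. The 1 Mb bin from 111000001 to 112000000 held 3 antibody 1 peaks against either control. That bin held 83 antibody 2 and 59 RNA polymerase II peaks against either control.

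The counts at BCL2L11 were 3, 12 and 55 against input as well, and 11 of the 12 antibody 2 peaks had identical bounds in both lists. Of the 55 RNA polymerase II peaks called against IgG, 51 were found against input. There the widest, of 4282 bp, ran from 1089 bp upstream to 3192 bp inside. Coverage of the window by RNA polymerase II was 42.8% against input and 36.2% against IgG. Of the antibody 1 peaks, the 184 bp one had identical bounds and the 123 bp one was found again. The 239 bp one was not, its nearest input-called neighbour lying 176 bp away. Windows as long as that of BCL2L11 held peaks of antibody 1, antibody 2 and RNA polymerase II in 17.0%, 94.6% and 22.5% of cases against IgG and in 33.2%, 94.6% and 26.4% against input. The span used here is 1538 bp longer than the RefSeq gene on GRCh38.p14. Distances from the RefSeq start may therefore be shorter than those from the 5′ end of the span by up to that much, and which end differs was not established. For the other 5 genes the lengths differ by 18 to 92 bp.

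BBC3 encodes PUMA, a direct target of p53 that binds all guardian proteins, and spans 47724079 to 47736023 on chromosome 19, on the minus strand. It was the gene without any peak within 1 kb of the 5′ end in any of the 6 lists. Its 10 RNA polymerase II peaks against IgG began 1163 bp inside the gene, and the widest (618 bp, 47729420 to 47730037) lay 5986 to 6603 bp from the 5′ end. The 4 antibody 2 peaks included 1 of 259 bp at the upstream edge of the window (47740723 to 47740981) and 1 that began 1996 bp inside the gene. There was no antibody 1 peak, and the nearest lay 41344 bp upstream. RNA polymerase II peaks thus lay inside BBC3 and not within 1 kb of the 5′ end of its span. Those nearest that end lay 1163 to 1404, 1566 to 1760 and 1872 to 2127 bp inside. Whether transcripts start further inside the gene was not examined, so the absence holds for the end of the span only. It also depends on the limit. Within 2 kb of the start, antibody 1, antibody 2 and RNA polymerase II had peaks at 1, 5 and 6 genes against IgG. BBC3 was the gene gained for antibody 2 and RNA polymerase II, and the share of genome windows was not counted at 2 kb.

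Against input, BBC3 had 1 antibody 1 peak (208 bp, from 11018 to 11225 bp inside the gene), 7 antibody 2 and 19 RNA polymerase II peaks. All 4 antibody 2 peaks called against IgG recurred there with identical bounds. Windows of this length held peaks in 7.34%, 89.0% and 12.3% of cases against IgG and in 16.7%, 88.9% and 15.4% against input, for antibody 1, antibody 2 and RNA polymerase II in that order.

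PMAIP1 encodes NOXA, which binds MCL1 and promotes its breakdown, and spans 57567180 to 57571538 on chromosome 18, on the plus strand. Against IgG it had no antibody 1 peak, 2 antibody 2 peaks and 6 RNA polymerase II peaks. Both antibody 2 peaks lay just inside the 5′ end, at 57567214 to 57567412 (199 bp) and 57567491 to 57567618 (128 bp), or 34 to 232 bp and 311 to 438 bp from it. No other antibody 2 peak against IgG lay within 22120 bp of the span. An RNA polymerase II peak of 2730 bp (57566139 to 57568868) held both and reached 1041 bp upstream. The widest RNA polymerase II peak (3803 bp, 57571454 to 57575256) began at the 3′ end of the gene and ran past it. Of the 6 peaks, 4 touched the span and covered 74.7% of it. Windows of this length held peaks of antibody 1, antibody 2 and RNA polymerase II in 4.99%, 82.0% and 9.30% of cases against IgG, so an antibody 2 peak in a window of this length is usual.

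Against input the PMAIP1 window was nearly filled: 12 antibody 1 peaks covered 83.6% of it, 22 antibody 2 peaks 32.6% and 4 RNA polymerase II peaks 95.7%, with 12.1%, 81.9% and 12.0% of windows of that length holding any. The widest RNA polymerase II peak there was 10965 bp and the widest antibody 1 peak 3902 bp. The 1 Mb bin from 57000001 to 58000000 held 706 antibody 1, 1577 antibody 2 and 879 RNA polymerase II peaks against input, and 8, 52 and 38 against IgG. The bin around PMAIP1 thus also held more peaks against input than against IgG, though its totals do not show how they are spread. The part of the bin in the PMAIP1 counts was not tested.

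BAX, the effector of the group, spans 49458072 to 49465055 on chromosome 19, on the plus strand. Its 5′ end was the only one of the 6 at which peaks of all 3 libraries overlapped against IgG. The antibody 1 peak (154 bp, 49457974 to 49458127) ran from 98 bp upstream to 55 bp inside. The antibody 2 peak (236 bp, 49458070 to 49458305) ran from 2 bp upstream to 233 bp inside and shared 58 bp with it. The RNA polymerase II peak (485 bp, 49457839 to 49458323) held both. All 3 recurred against input, where they were wider, at 496 bp, 270 bp and 754 bp, and where a second antibody 1 peak of 215 bp lay 381 bp inside the gene. This is the start whose RefSeq window, printed above, holds the 4 E-box letter runs.

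Away from the start, RNA polymerase II and antibody 1 peaks called against IgG lay towards the 3′ end of BAX or beyond it. Antibody 2 peaks lay on both sides. Of the 11, 3 were upstream of the span, 4 touched it and 4 were past its 3′ end. No RNA polymerase II peak against IgG lay between 251 and 5199 bp from the 5′ end, 9 lay from there on, and 5 of the 10 were wholly past the 3′ end. The widest (982 bp, 49465028 to 49466009) overlapped the 3′ end. The other 2 antibody 1 peaks, of 123 bp (49465313 to 49465435) and 132 bp (49468892 to 49469023), lay 258 and 3837 bp past the 3′ end, inside RNA polymerase II peaks, outside antibody 2 peaks, and were not found against input. FTL, the ferritin light chain gene, is the next gene on that side in the RefSeq order. No hg19 position of FTL was used here, so whether either peak lies in FTL was not established. In all, the window held 3 antibody 1, 11 antibody 2 and 10 RNA polymerase II peaks against IgG and 2, 10 and 10 against input. Of those against IgG, only 1, 4 and 5 touched the span of BAX itself. Windows as long held peaks in 5.83%, 85.2% and 10.4% of cases against IgG and 13.8%, 85.1% and 13.3% against input. At 6.48 per 10 kb, antibody 2 peaks called against IgG were denser at BAX than at the other 5 genes, against 1.58 over the whole list, and 9 of the 11 had the minimum width. The 1 Mb bin from 49000001 to 50000000 was itself dense, with 326 antibody 2 peaks against IgG where the list averages 158 per Mb. It held 28 antibody 1 peaks, against a mean of 4.58.

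**Figure D2:**
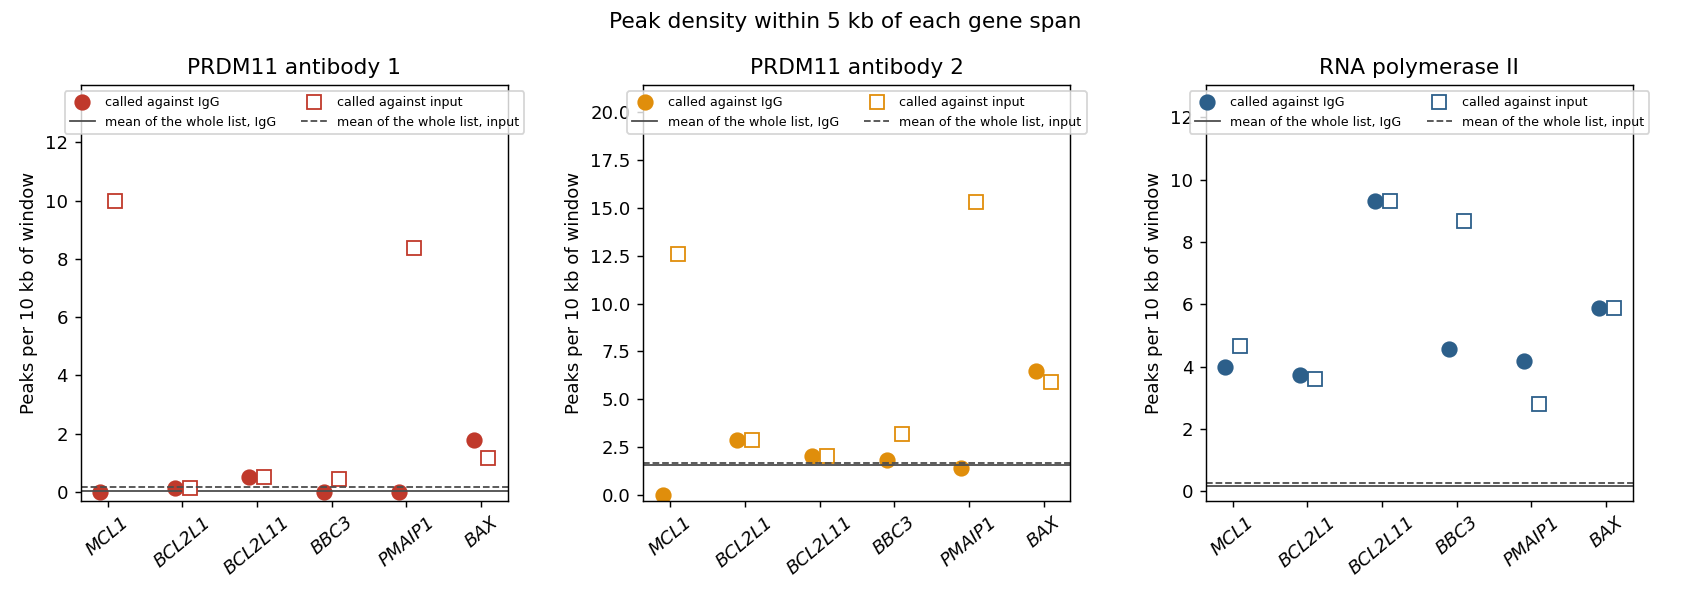
Peaks per 10 kb of window at each gene for antibody 1, antibody 2 and RNA polymerase II, called against IgG (filled circles) and input (open squares), with the mean of the whole list as lines. RNA polymerase II lies above its lists at every gene (3.74 to 9.31 against 0.17 for IgG), while antibody 2 against IgG at BCL2L11, BBC3 and PMAIP1 (2.03, 1.82 and 1.39) lies near its mean of 1.58.

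Across the 6 genes, antibody 2 density against IgG ran from 0 at MCL1 through 1.39 at PMAIP1, 1.82 at BBC3, 2.03 at BCL2L11 and 2.88 at BCL2L1 to 6.48 at BAX. RNA polymerase II ran from 3.74 at BCL2L1 through 3.99 at MCL1, 4.18 at PMAIP1, 4.56 at BBC3 and 5.89 at BAX to 9.31 at BCL2L11. With 1 library each, no neighbours in either order can be said to differ. MCL1 had no antibody 2 peak and PMAIP1 had 2, but their RNA polymerase II peaks covered more of the window (65.6% and 58.4%) than those of any other gene, the next being BCL2L11 at 36.2%. Coverage at BAX, BBC3 and BCL2L1 was 25.7%, 12.2% and 9.74%, against 0.609% of chromosomes 1 to 22 and X.

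**Figure D3:**
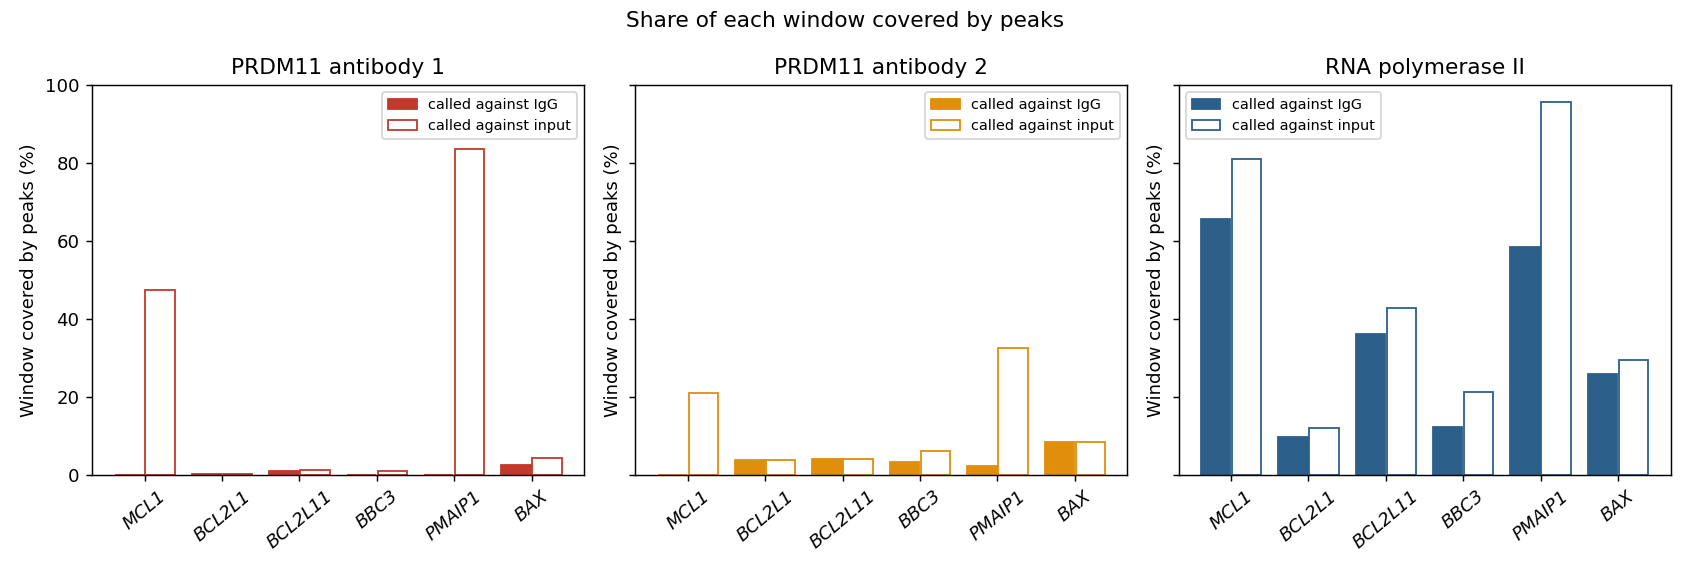
Percentage of each window covered by peaks called against IgG (filled bars) and against input (open bars). Only MCL1 and PMAIP1 show tall open bars for antibody 1 (47.3% and 83.6%) and antibody 2 (20.9% and 32.6%), while RNA polymerase II covers these 2 genes most under either control.

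Overlap between libraries was read for the 7 antibody 1 peaks called against IgG. Of these, 3 overlapped an antibody 2 peak (42.9%, 9.9% to 81.6%), against 47.2% of all antibody 1 peaks, and 6 overlapped an RNA polymerase II peak (85.7%, 42.1% to 99.6%), against 55.2% of all. Both intervals include the value for the whole list. Against input, 26 of 34 overlapped antibody 2 (76.5%, 58.8% to 89.3%), against 34.8% of the list, and 34 of 34 overlapped RNA polymerase II (100%, 89.7% to 100%), against 44.9%. Both of these intervals lie above the list's share, but 15 of the 34 peaks are at MCL1 and 12 at PMAIP1. Without those genes, 5 of 7 overlapped antibody 2 and 7 of 7 RNA polymerase II. Of the 49 antibody 2 IgG-called peaks, 23 overlapped RNA polymerase II (46.9%, 32.5% to 61.7%), against 3.20% of all antibody 2 peaks. The interval lies above that share, but these peaks are not independent, since 10 of the 23 are at BCL2L11 and 5 at BAX. RNA polymerase II peaks cover 27.1% of these windows and 0.609% of all sequence, and the part of this in the overlap was not tested. Of the 113 IgG-called RNA polymerase II peaks, 5 overlapped antibody 1 (4.42%, 1.45% to 10.0%), against 14.3% of all, and 17 overlapped antibody 2 (15.0%, 9.01% to 23.0%), against 25.6% of all. Both intervals lie below the shares of the whole list, but the 113 peaks are not independent, since 55 belong to BCL2L11 and 26 to BCL2L1.

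**Figure D4:**
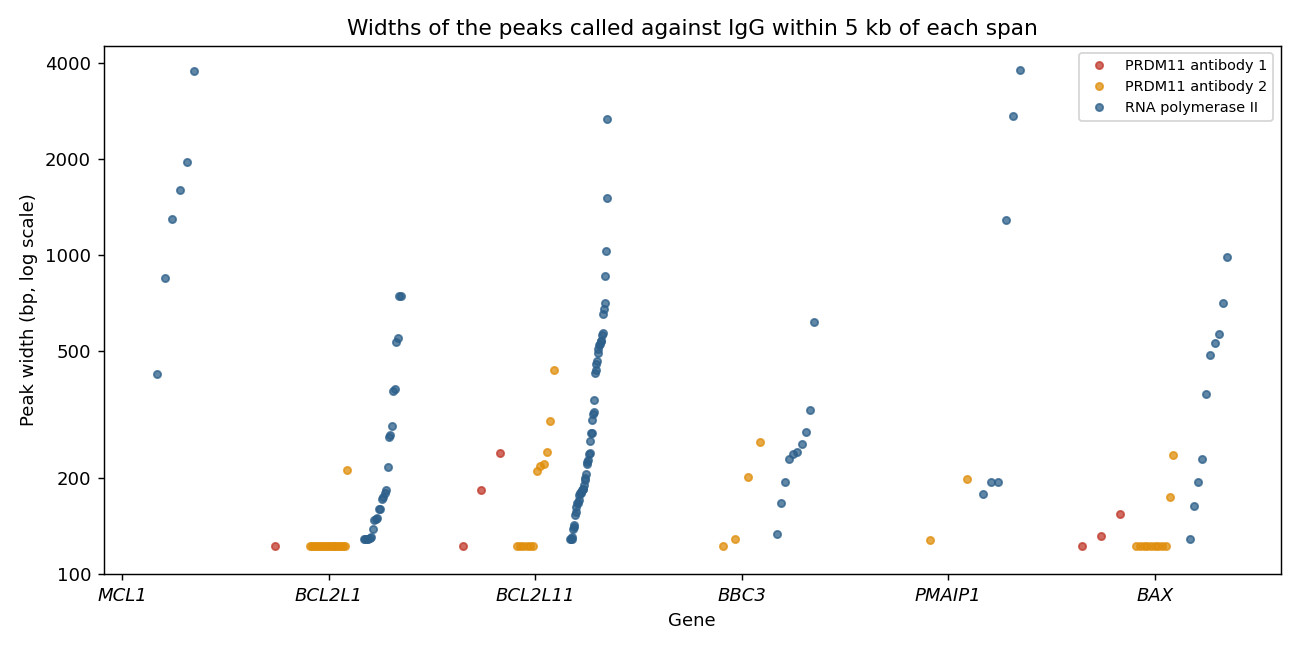
Widths in bp (log scale) of the peaks called against IgG, 1 point per peak in order of width, for antibody 1, antibody 2 and RNA polymerase II at each gene. Antibody points stay at 436 bp or below, while the widest RNA polymerase II points, above 2500 bp, belong to MCL1, BCL2L11 and PMAIP1.

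The widths of the antibody 1 peaks counted at these genes differed between the controls, and most of those called against input were at MCL1 and PMAIP1. Against IgG, the 7 antibody 1 peaks were 123 to 239 bp wide (median 132 bp, against 184 bp for the list) and 3 had the minimum width of 123 bp. Against input, the 34 were 125 to 3902 bp wide (median 401.5 bp, against 172 bp for the list), and 0 had the minimum width. Of these 34, 15 were at MCL1 (median 318 bp) and 12 at PMAIP1 (median 734 bp, widest 3902 bp). At BCL2L1, BCL2L11, BBC3 and BAX the medians against input were 134, 192, 208 and 355.5 bp. The 49 antibody 2 peaks called against IgG were 123 to 436 bp wide, and 35 had the minimum width, 71.4% against 78.4% of the list. RNA polymerase II peaks called against IgG were 129 to 3803 bp wide with a median of 238 bp, against 246 bp for the list. Those of MCL1 had a median of 1448.5 bp and those of PMAIP1 of 742 bp, while at BCL2L1, BCL2L11, BBC3 and BAX the medians were 173.5, 238, 240 and 426 bp.

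Calls that stood against both controls were fewer. Of the antibody 1 peaks called against IgG, 3 of 7 (42.9%, 9.9% to 81.6%) were found against input, against 81.3% of the list, and these 3 were the 184 bp and 123 bp peaks of BCL2L11 and the peak at the start of BAX. For antibody 2, 43 of 49 were found again (87.8%, 75.2% to 95.4%), against 93.2% of the list, 37 of them with identical bounds. For RNA polymerase II, 100 of 113 were (88.5%, 81.1% to 93.7%), against 89.4%. At 10 kb in place of 5 kb the 6 genes held 7 antibody 1, 63 antibody 2 and 128 RNA polymerase II peaks. At BAX an antibody 2 peak lay across the upstream 5 kb limit (5085 to 4963 bp upstream), and an RNA polymerase II peak of 421 bp lay 20 bp outside the limit on the other side.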

How the data were processed

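Per the labels' protocols, U2932 cells were cross-linked, sonicated and immunoprecipitated. Per the submitters' processing notes, Bowtie 0.12.7, SAMtools, MACS2 2.0.9 and build hg19 were used, and their settings are not given in the sources used here. The deposited lists hold a chromosome, start and end per peak, with no score or count, and the control and q threshold (0.1) are known from the list names. Starts are printed counted from 1.

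Peaks were assigned when at least 1 bp lay within 5 kb of a span. Spans were given with the gene list, without exons or UTRs on hg19. Strands came from RefSeq, or general knowledge for MCL1. Overlap meant at least 1 bp. Backgrounds are consecutive windows of equal length over chromosomes 1 to 22 and X (2950 Mb). Every antibody 1 peak against IgG, the widest peak per gene and library, and those at starts are named. Members and lists were chosen with earlier results of these data known. Other family genes and cell type markers were not analysed here, for lack of an hg19 annotation. Python 3.11.15, NumPy 2.4.6, pandas 2.3.3, SciPy 1.17.1 and matplotlib 3.10.9 were used. The overlap code was tested on simulated data, and all 36 counts per gene and list equalled those of bedtools 2.31.1.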

Additional observations from a re-analysis of the deposited data

How the results depend on the processing

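Without any replicate, only the lists and limits could be varied, and leaving out BCL2L11 or BCL2L1, leaving out MCL1 and PMAIP1 from the input lists, and moving the start of BCL2L11 were added after seeing the data. Against input, antibody 1 peaks numbered 34 in place of 7, at 6 genes in place of 3 and at 3 starts in place of 1, and antibody 2 peaks numbered 90 in place of 49. MCL1 and PMAIP1 hold 15 and 12 of the 34 and 19 and 22 of the 90, and without them the input counts were 7, 49 and 109 for antibody 1, antibody 2 and RNA polymerase II. All antibody 1 peaks, 100%, overlapped RNA polymerase II with both lists against input, with or without MCL1 and PMAIP1, in place of 85.7% (44.9% of all antibody 1 peaks called against input). The share of antibody 1 peaks in antibody 2 was 42.9% (n = 7, 9.9% to 81.6%), 14.3% where at least 50% of a peak had to be covered, and 76.5% with both lists against input (34.8% of that list). With the start of BCL2L11 moved inside by 1538 bp, antibody 1 had peaks at 2 starts. With peaks of 200 bp or more, antibody 1 had 1 peak at 1 gene and 0 starts, antibody 2 had 10 peaks and 2 starts in place of 4, and RNA polymerase II had 66 peaks in place of 113. This limit removes peaks by construction, and the cause of the differences against input was not tested. Peaks of antibody 1 found against both controls numbered 3. Without BCL2L11, antibody 1 had 4 and RNA polymerase II 58 peaks, and without BCL2L1, antibody 2 had 29. The other counts over the 6 genes stayed within 1.5 times under the remaining distances, midpoints and overlaps tried. Of the 18 counts per gene and library, 7 moved by more than that against input, 11 with the width limit (all lower), 5 within the span only (lower), 4 within 10 kb (higher), 2 with both controls required (lower) and 0 with midpoints. No paired analysis was possible because each group has 1 library. Read depth is unknown, so how many reads stand behind a 123 bp peak cannot be given.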
